A study of Mus musculus with 8 samples.

Results

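Interferons are secreted proteins that warn cells of infection, and cells that sense them switch on many interferon-stimulated genes. The 10 genes described here are members of that response, and most are known as antiviral effectors or as parts of the ISG15 system. They were chosen by name, as antiviral effectors (Rsad2, Cmpk2, Mx1, Mx2, Isg20, Bst2), as parts of the ISG15 system (Isg15, Herc6, Usp18) and as an interferon-induced partner of the apoptosis inhibitor Xiap (Xaf1). All 10 were found among the 55487 genes of the table, and all 10 passed the count filter that left 16061 genes for testing. RNA was sequenced from 8 tumors of Lewis lung carcinoma (LLC), a mouse lung cancer line, growing under the skin of syngeneic C57BL/6J mice and taken at day 12. In 4 tumors the implanted cells were wild-type, and in 4 they were labelled Ago2 knock-out (ΔAgo2), which lack the small-RNA-binding protein Argonaute 2. Per the study's methods, the mice were female, bought at 6 to 8 weeks of age, and the knock-out line came from a lentiviral CRISPR guide, puromycin selection and 1 chosen clone. The host kept its own Ago2, no drug treatment is given for these tumors, and the genotype cannot be told apart from what is particular to that clone. The study compared these tumors to learn how Ago2 in cancer cells favors tumor growth.

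ISG15 is a ubiquitin-like protein that is attached to other proteins by a chain of enzymes and can also be secreted. Uba7 activates it, Ube2l6 carries it, and Herc6 is the main ligase for it in mouse cells, while Usp18 removes it and also blocks signaling from the type I interferon receptor. Interferon-stimulated genes are switched on through a DNA element, the interferon-stimulated response element (ISRE), which is bound by a complex that includes Stat2 and Irf9.

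The names of all 8 libraries began with the same prefix, and the sample titles name no batch. Library totals ran from 7903288 to 52809635 counts in wild-type tumors and from 31846706 to 268564145 in ΔAgo2 tumors. Levels are given in CPM (each count divided by its library's effective total and multiplied by 1e+06), and 3 counts, the limit that a count of 0 allows, were 0.43 CPM in wild-type library 4 and 0.0105 CPM in ΔAgo2 library 4. These limits cover counting error only. Ago2 itself ran from 129.9 to 195.0 CPM in wild-type tumors and from 118.3 to 354.7 CPM in ΔAgo2 tumors (log2 fold change 0.64, SE 0.30, adjusted p = 0.205). The mean of ΔAgo2 tumors was thus not below that of wild-type tumors, though ΔAgo2 tumor 1 was below every wild-type tumor, and this leaves the labels unchecked, since a small CRISPR lesion can leave the transcript in place and host cells keep the gene. Among lung epithelial markers, Nkx2-1 and Sftpa1 were at 0 in every library and Sftpc reached at most 0.0477 CPM. The keratins Krt8 and Krt18 were above 200 CPM in each library. Other epithelial markers of that list were low: Krt7 (0.149 to 1.51 CPM), Krt19 (2.02 to 9.89 CPM), Epcam (0.736 to 4.36 CPM) and Cdh1 (2.44 to 14 CPM). Markers of skeletal muscle summed to 3087 CPM in wild-type library 3, against 208.8 to 439.9 CPM in the other wild-type libraries and 36.2 to 178.6 CPM in ΔAgo2 libraries. In bulk tumors, a difference in the number of cells of a type cannot be told apart from a difference in RNA per cell, nor cancer-cell RNA from host RNA.

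Promoter sequence helps to place the members within the interferon response. RefSeq start sites on GRCm38.p6 were given for 7 of the 10 members, in 9 entries, and none was given for Mx1, Mx2 or Usp18. The 250 bases before each start were searched on both strands for the core of the ISRE, read as GAAA, any 2 bases and GAAA again (TTTC, 2 bases and TTTC on the other strand), where matches may overlap each other. Matches were found for Isg15 (3), Bst2 (2) and Rsad2 (1), and such a match occurred in 3.0% of 32851 promoters. The 4 windows below show these 3 promoters and that of Cmpk2, the divergent neighbor of Rsad2, each written 5′ to 3′ on the strand of the gene, with the matched letters in capitals. The Isg15 window is chr4:156200835-156200936 (minus strand), from 118 to 17 bases before the start, the Bst2 window chr8:71537547-71537642 (minus strand), the Rsad2 window chr12:26456523-26456612 (minus strand) and the Cmpk2 window chr12:26469095-26469214 (plus strand).
Isg15: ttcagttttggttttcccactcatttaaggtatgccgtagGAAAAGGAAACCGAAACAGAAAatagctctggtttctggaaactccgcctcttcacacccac
Bst2: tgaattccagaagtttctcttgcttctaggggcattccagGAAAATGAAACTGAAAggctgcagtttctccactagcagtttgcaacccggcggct
Rsad2: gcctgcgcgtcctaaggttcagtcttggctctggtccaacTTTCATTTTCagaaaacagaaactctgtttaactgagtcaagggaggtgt
Cmpk2: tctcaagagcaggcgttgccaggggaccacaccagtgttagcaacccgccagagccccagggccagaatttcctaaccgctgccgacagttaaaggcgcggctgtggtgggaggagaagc
In Isg15 the 3 matches lay within a single run of capitals, and in Bst2 the 2 matches overlapped likewise. The Rsad2 match read TTTC first, on the opposite strand. The windows of Cmpk2, Herc6, Isg20 and Xaf1 held no match, which says only that these letters are not in these windows. A looser palindrome, TTCNNNGAA, the core of the gamma-activated site of the interferon response, was found in 1 Isg20 entry and in Bst2, against 7.0% of promoters.

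Rsad2 was the member that rose in ΔAgo2 tumors by the test used, and the other 9 had positive log2 fold changes that did not pass it. Rsad2 (viperin) converts CTP into a chain-terminating nucleotide that stops viral polymerases. Wild-type tumors 1 to 4 held 26.8, 9.34, 13 and 8.46 CPM of it, and ΔAgo2 tumors 1 to 4 held 51.7, 76.4, 61.5 and 45.6 CPM. Every ΔAgo2 tumor was above every wild-type tumor, and wild-type tumor 1 was the highest of its group. Mean Rsad2 was 14.4 ± 8.48 CPM (SD, n = 4) in wild-type and 58.8 ± 13.4 CPM (SD, n = 4) in ΔAgo2 tumors, a 4.04-fold difference (log2 fold change 2.01, SE 0.36, 95% interval 1.21 to 2.82, adjusted p = 0.0177). Over all genes tested, 219 of 16061 (1.36%) were called higher in ΔAgo2 tumors, so 1 of 10 members stands beside a background of 1.36%. The Rsad2 call was lost when wild-type library 2 (log2 fold change 1.85, adjusted p = 0.0689), ΔAgo2 library 2 (1.85, adjusted p = 0.0569) or ΔAgo2 library 3 (2.00, adjusted p = 0.0515) was left out.

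Across the 10 members the median log2 fold change was 1.20, against 0.04 over all genes tested, and all 10 values were positive, against 52.5% of all genes. In 5 members (Rsad2, Cmpk2, Mx1, Usp18 and Herc6) every ΔAgo2 library was above every wild-type library, an arrangement seen in 8.05% of all genes tested. The DESeq2 Wald test called these same 5 genes higher, with 6.52% of the genes it tested called higher. The members were picked as a group known to respond together, so their shared direction does not amount to 10 separate results. They were also chosen with earlier results of these data known, so the comparison with all genes is not independent of that choice.

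**Figure D1:**
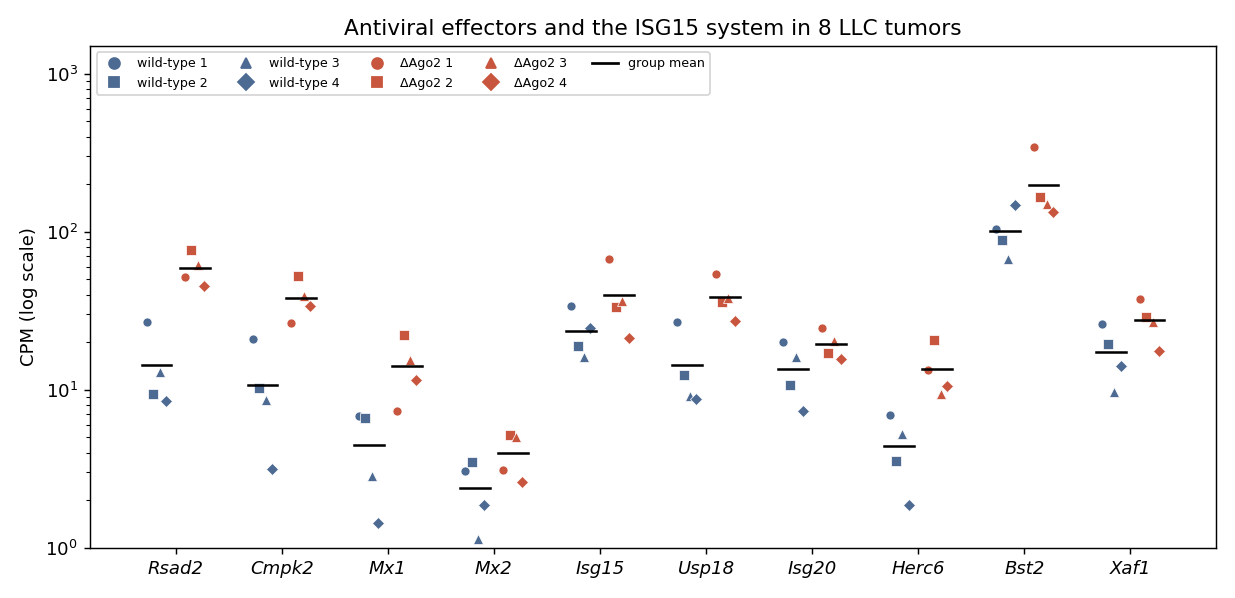
Level of each member in each tumor, in CPM on a log axis that starts at 1; wild-type tumors are blue, ΔAgo2 tumors red, marker shape gives the tumor number and the black bar is the group mean. Rsad2, Cmpk2, Mx1, Usp18 and Herc6 show every red point above every blue point, while Mx2, Isg15, Isg20, Bst2 and Xaf1 overlap.

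Cmpk2 is a mitochondrial kinase that phosphorylates pyrimidine monophosphates and so feeds CTP to viperin, and it lies next to Rsad2 on chromosome 12. Rsad2 (chr12:26442746-26456452, minus strand) and Cmpk2 (chr12:26469204-26479837, plus strand) are read away from each other with 12751 bases between them. Cmpk2 was at 20.8, 10.2, 8.66 and 3.15 CPM in wild-type tumors and at 26.5, 52.6, 39 and 33.9 CPM in ΔAgo2 tumors. The groups did not overlap, and wild-type tumor 1 came close to ΔAgo2 tumor 1. The log2 fold change of Cmpk2 was 1.80 (SE 0.45, 95% interval 0.81 to 2.80, adjusted p = 0.0557). Its spread among wild-type tumors was 6.6-fold from lowest to highest, the widest of the members. Within a library, Cmpk2 minus Rsad2 in log2 CPM averaged -0.56 ± 0.64 (SD, n = 4) in wild-type and -0.65 ± 0.23 (SD, n = 4) in ΔAgo2 tumors. The difference of -0.08 was smaller than the spread of either group (two-sided exact permutation test over 70 assignments, p = 0.8, adjusted p over the 4 ratios tested = 0.8).

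Isg20 is an exonuclease that degrades single-stranded RNA. It was at 20.1, 10.7, 16.1 and 7.31 CPM in wild-type tumors and at 24.5, 17, 20.3 and 15.6 CPM in ΔAgo2 tumors. The groups overlapped, and the log2 fold change of 0.50 (SE 0.31, 95% interval -0.18 to 1.18, adjusted p = 0.311) was the smallest among the members in this fit. With the GC trend removed, Xaf1 (0.42) and Mx2 (0.72) were below Isg20 (0.77). Isg20 had the highest GC content of the members (57.4%, taken, as for each gene, from its longest transcript).

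Mx1 and Mx2 encode dynamin-like GTPases that trap viral nucleoproteins, and they lie 72.4 kb apart on chromosome 16. In the C57BL/6 reference both genes are known to carry lesions: GENCODE M21 lists Mx2 as a polymorphic pseudogene, and RefSeq lists both as transcribed pseudogenes. Their RNA is therefore a readout of transcription rather than of a working protein. Mx1 (chr16:97447035-97462907) was at 6.84, 6.63, 2.84 and 1.43 CPM in wild-type tumors and at 7.34, 22.2, 15.4 and 11.6 CPM in ΔAgo2 tumors. The groups were separated, though ΔAgo2 tumor 1 was only 1.07 times the highest wild-type tumor. The log2 fold change of Mx1 was 1.64 (SE 0.48, 95% interval 0.58 to 2.69, adjusted p = 0.0799).

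Mx2 (chr16:97535308-97560900) was at 3.07, 3.48, 1.14 and 1.86 CPM in wild-type tumors and at 3.08, 5.13, 5.04 and 2.62 CPM in ΔAgo2 tumors. The groups overlapped in ΔAgo2 tumors 1 and 4, and the log2 fold change was 0.72 (SE 0.41, 95% interval -0.18 to 1.63, adjusted p = 0.275). Mx2 minus Mx1 in log2 CPM was -1.15, -0.92, -1.30 and 0.37 in wild-type libraries and -1.25, -2.11, -1.61 and -2.14 in ΔAgo2 libraries. Wild-type library 4, the shallowest, was the only one with Mx2 above Mx1, and it held 10 counts of Mx1 and 13 counts of Mx2. The difference between genotypes of -1.02 did not pass the exact permutation test (two-sided p = 0.0571, adjusted p = 0.114), and it was -0.65 without wild-type library 4.

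The ISG15 system gave a range of values from its protease Usp18 to its modifier Isg15. Usp18 was at 26.9, 12.3, 9.12 and 8.74 CPM in wild-type tumors and at 53.9, 36.1, 38 and 27.4 CPM in ΔAgo2 tumors. The groups did not overlap, but wild-type tumor 1 and ΔAgo2 tumor 4 were next to each other. The log2 fold change of Usp18 was 1.43 (SE 0.38, 95% interval 0.60 to 2.26, adjusted p = 0.0625). The annotation places the antisense transcript Gm44148 over Usp18, and since the strand setting of the counting was not stated, reads from the 2 genes may not be told apart.

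Herc6 was at 6.93, 3.53, 5.28 and 1.86 CPM in wild-type tumors and at 13.4, 20.6, 9.34 and 10.6 CPM in ΔAgo2 tumors, with no overlap. Its log2 fold change was 1.58 (SE 0.39, 95% interval 0.71 to 2.45, adjusted p = 0.0547). Herc6 had the longest exonic length (9292 bases) and the lowest GC content (39.4%) of the members, and with each library's trend on GC content removed its log2 fold change was 0.86 (adjusted p = 0.109). Gm45193 and Gm19244 overlap Herc6 in the annotation, so its counts may include or have lost some of their reads.

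Isg15 itself was at 33.9, 18.8, 16.1 and 24.7 CPM in wild-type tumors and at 66.9, 33.4, 36.6 and 21.1 CPM in ΔAgo2 tumors. ΔAgo2 tumor 1 was by far the highest and ΔAgo2 tumor 4 lay inside the wild-type range. The log2 fold change of Isg15 was 0.76 (SE 0.36, 95% interval -0.03 to 1.54, adjusted p = 0.2), and without ΔAgo2 library 1 it was 0.37.

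Usp18 and Isg15 are the protease and the protein it removes, so their ratio within a library was compared. Usp18 minus Isg15 in log2 CPM was -0.34, -0.61, -0.82 and -1.49 in wild-type libraries and -0.31, 0.11, 0.05 and 0.37 in ΔAgo2 libraries. Every ΔAgo2 library was above every wild-type library, by 0.87 on average (two-sided exact permutation test, p = 0.0286, the smallest these groups allow). After adjustment over the 4 ratios tested, p was 0.114. A ratio within a library does not depend on how libraries are scaled, but it can carry a library's trend on length or GC content, and the difference was 1.02 with the length trend removed and 0.74 with the GC trend removed.

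Herc6 minus Isg15 differed by 1.01 between genotypes (wild-type -2.50 ± 0.88, ΔAgo2 -1.49 ± 0.77, SD, n = 4 each, two-sided exact permutation p = 0.171, adjusted p = 0.229). With the GC trend removed, that difference was 0.08. The 2 genes are far apart in both properties, since Isg15 has an exonic length of 756 bases and a GC content of 52.8%.

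**Figure D2:**
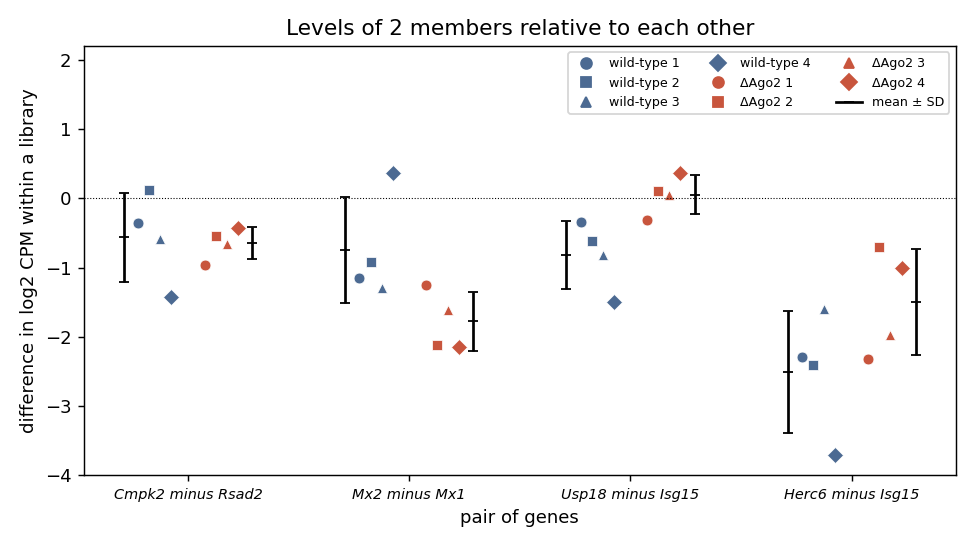
Difference in log2 CPM between 2 members within each library, for the 4 pairs tested; points are libraries (blue wild-type, red ΔAgo2, shape by tumor number) and bars are mean ± SD of 4. Usp18 minus Isg15 is the pair whose genotypes do not overlap, and no pair passed after adjustment over 4.

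None of the 4 other enzymes that attach ISG15 was called in either direction, against 1.36% of all genes called higher. Uba7, the activating enzyme, ran from 15.7 to 42.3 CPM in wild-type and from 22.5 to 33.1 CPM in ΔAgo2 tumors (log2 fold change 0.18, SE 0.30, adjusted p = 0.721). Ube2l6, the conjugating enzyme, was at 49.5, 54.2, 33.1 and 70.8 CPM in wild-type and at 132.5, 63.2, 56.8 and 54.3 CPM in ΔAgo2 tumors (log2 fold change 0.57, SE 0.33, adjusted p = 0.285). ΔAgo2 tumor 1 was the highest, as for Isg15, and the other ΔAgo2 tumors lay inside the wild-type range of Ube2l6. Trim25, a ligase with both ubiquitin and ISG15 activity, had every ΔAgo2 tumor above every wild-type tumor (log2 fold change 0.54, SE 0.20, adjusted p = 0.124). Arih1, an ariadne-family ligase also reported to act with ISG15, had a log2 fold change of 0.66 (SE 0.33, adjusted p = 0.22). The interval of Uba7, -0.49 to 0.85, holds differences of either sign.

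Bst2 (tetherin) is a membrane protein that holds budding virus particles on the cell surface, and it was the most abundant member. It was at 103.7, 88.3, 67.2 and 146.6 CPM in wild-type tumors and at 344.2, 165.8, 150.1 and 132.8 CPM in ΔAgo2 tumors. ΔAgo2 tumor 1 stood far above the rest, and ΔAgo2 tumor 4 lay below wild-type tumor 4. The log2 fold change of Bst2 was 0.97 (SE 0.34, 95% interval 0.22 to 1.72, adjusted p = 0.114), and without ΔAgo2 library 1 it was 0.56. Bst2 is also a surface marker of plasmacytoid dendritic cells, whose defining gene Siglech ran from 0.429 to 0.993 CPM in wild-type and from 0.389 to 0.985 CPM in ΔAgo2 tumors.

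Xaf1 binds Xiap and counters its block on caspases. It was at 26.1, 19.6, 9.65 and 14.2 CPM in wild-type tumors and at 37.5, 28.8, 26.7 and 17.6 CPM in ΔAgo2 tumors, which overlapped. The log2 fold change of Xaf1 was 0.66 (SE 0.33, 95% interval -0.06 to 1.39, adjusted p = 0.219). Its partner Xiap had a log2 fold change of 1.45 (SE 0.43, adjusted p = 0.0826). Of 9 inhibitors of apoptosis and their caspases, none was called and 8 had positive values, with a median of 0.58, beside 1.36% called higher and 52.5% positive over all genes. In this list 3 were called higher by the DESeq2 Wald test and 4 by limma voom, beside 6.52% and 14.9% of all genes. There were 3 with the length trend removed and 3 without ΔAgo2 library 1 (2.66% and 6.01% of all genes). With no count filter and without wild-type library 3 there was 1 each (1.7% and 2.21% of all genes).

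**Figure D3:**
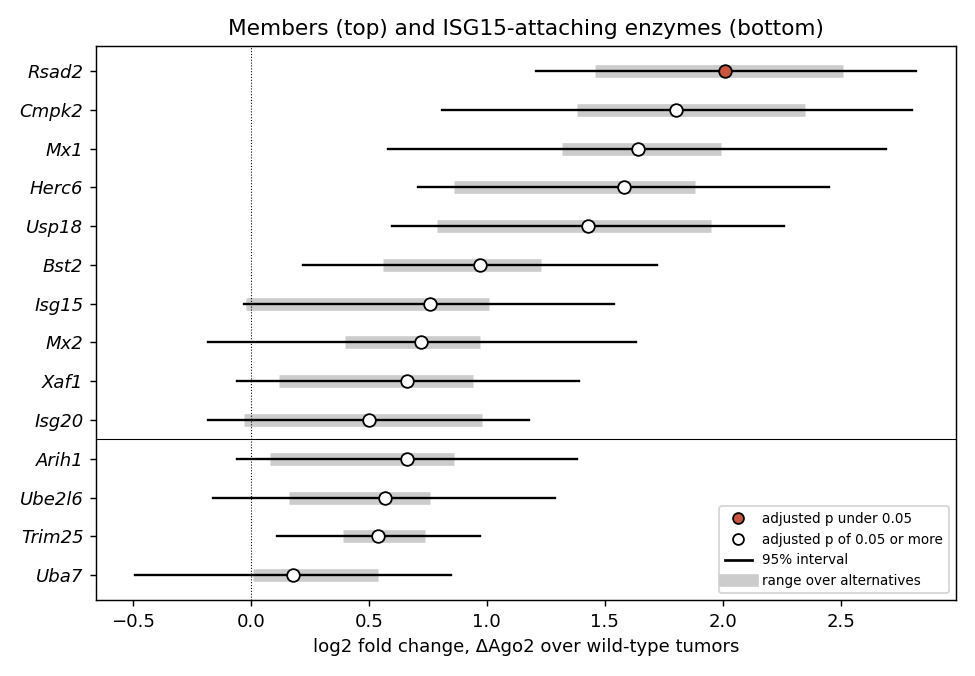
Log2 fold change of ΔAgo2 over wild-type tumors for the 10 members (above the line) and 4 other ISG15-attaching enzymes (below it), as points with 95% intervals; grey bars span the values under 22 other ways of processing. Rsad2, the filled point, passed an adjusted p of 0.05. The intervals of Isg15, Mx2, Xaf1 and Isg20 include 0, and so do those of the enzymes Uba7, Ube2l6 and Arih1.

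Levels were compared between genes in TPM (counts divided by gene length, then rescaled to a total of 1e+06). Bst2 was first and Isg15 second in each of the 8 libraries. Mean TPM of Bst2 was 286.9 ± 53.6 in wild-type and 633.2 ± 155.3 in ΔAgo2 tumors, and that of Isg15 was 87.7 ± 33.6 and 162.4 ± 44.4 (SD, n = 4 each). Their ranges did not overlap within either genotype. Rsad2 was 6th of the 10 in wild-type tumors (9.08 ± 6 TPM) and 3rd in ΔAgo2 tumors (42.8 ± 16.4 TPM). In wild-type tumors Isg20 (20 ± 9.97 TPM), Usp18 (14 ± 9.37 TPM), Xaf1 (9.96 ± 4.83 TPM), Rsad2 and Cmpk2 (7.18 ± 5.28 TPM) had overlapping ranges, and Mx1 (3.27 ± 2.16 TPM) came after them. In ΔAgo2 tumors Rsad2 and Usp18 (41.5 ± 5.91 TPM) did not differ beyond their spread, nor did Isg20 (31.3 ± 3.01 TPM) and Cmpk2 (29.4 ± 13.3 TPM). Xaf1 followed at 17.7 ± 3.97 TPM and Mx1 at 12.3 ± 7.13 TPM in ΔAgo2 tumors, with overlapping ranges. The lowest were Herc6 (1.31 ± 0.744 and 4.58 ± 2.39 TPM in wild-type and ΔAgo2 tumors) and Mx2 (1.78 ± 0.94 and 3.48 ± 1.57 TPM), whose order changed between libraries.

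The scale decided for several members whether the genotypes overlapped. For a given gene, TPM differs from CPM by a factor that is particular to each library. Relative to wild-type library 1, this factor was 0.707 in wild-type library 4 and 0.769 in ΔAgo2 library 1, and 1.28, 1.11 and 1.19 in ΔAgo2 libraries 2 to 4. In TPM, Rsad2, Usp18, Herc6 and Bst2 were without overlap (6.41% of the genes that passed the TPM filter were higher in the same way), and Mx1 and Cmpk2 overlapped. The lowest Bst2 level in ΔAgo2 tumors was 499.9 TPM and the highest in wild-type tumors 327.5 TPM. With limma on log2(TPM + 1), where the median of all genes was shifted to 0.21, Rsad2 (2.22, adjusted p = 0.0394) and Bst2 (1.13, adjusted p = 0.0464) were called higher.

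Among wild-type tumors most members were highest in the same tumor, while among ΔAgo2 tumors they were split between tumors 1 and 2. Of the wild-type tumors, tumor 1 was the highest for 8 of the 10 members, with Mx2 highest in tumor 2 and Bst2 in tumor 4. Wild-type tumor 4 was the lowest for 6 members and tumor 3 for 4. Of the ΔAgo2 tumors, tumor 1 was the highest for Isg15, Usp18, Isg20, Bst2 and Xaf1, and tumor 2 for Rsad2, Cmpk2, Mx1, Mx2 and Herc6. ΔAgo2 tumor 4 was the lowest for 7 members, tumor 1 for Cmpk2 and Mx1, and tumor 3 for Herc6. The mean of the members' log2 CPM, each centered on its own mean, came to 0.11, -0.58, -0.93 and -1.20 in the wild-type tumors, in order of their number, and to 0.80, 0.89, 0.67 and 0.25 in the ΔAgo2 tumors. By this mean, wild-type tumor 1 lay nearer to ΔAgo2 tumor 4 than to any other wild-type tumor.

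Genes outside the members were ranked by how closely their centered profile over the 8 libraries followed that mean, as a root-mean-square distance in log2 CPM. Of 13063 genes, the nearest were Sp110 (0.153), Oasl2 (0.171), Gbp2 (0.197), Parp12 (0.219), Cd69 (0.225) and Gbp3 (0.259). Oasl2, Gbp2 and Gbp3 were in the list of other interferon-induced genes described next. Parp12 had a log2 fold change of 1.00 (SE 0.23, adjusted p = 0.0415) and Sp110 of 1.12 (SE 0.28, adjusted p = 0.0579). The distances are a description over 8 libraries that include both genotypes.

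Of 33 other interferon-induced antiviral genes, 2 were called higher, none was called lower and 30 had positive values, beside 1.36% called higher and 52.5% positive over all genes, with a median log2 fold change of 0.97. The count called higher depended on the processing. It was 13 by the DESeq2 Wald test, 10 by limma voom and 12 with no count filter, beside 6.52%, 14.9% and 1.7% of all genes. With the length trend removed it was 6 (2.66% of all genes), and with the GC trend removed and a replicate block 3 (0.704%). It was 0 on total counts (1.01%) and on TPM (0.11% to 0.5%). Without wild-type library 1 it was 12 (1.56%), without ΔAgo2 library 1 it was 6 (6.01%) and without wild-type library 3 it was 1 (2.21%). It was 0 without wild-type library 2 or 4 or ΔAgo2 library 2, 3 or 4 (0.123% to 0.467%). The genes called were Oas2, which makes the oligoadenylates that activate RNase L (log2 fold change 1.61, SE 0.37, adjusted p = 0.0435), and Gbp3, a guanylate-binding protein (1.45, SE 0.33, adjusted p = 0.0439). When 1 library was left out, Oas2 lost its call in 5 of 8 fits (adjusted p 0.0293 to 0.131) and Gbp3 in 6 of 8 (adjusted p 0.00797 to 0.136). In 13 of the 33 every ΔAgo2 tumor was above every wild-type tumor, beside the background of 8.05%. The most abundant of the list was Ifitm3, which blocks viral entry, with 714.5 to 1362 CPM in wild-type and 542.3 to 1415 CPM in ΔAgo2 tumors (log2 fold change -0.34, SE 0.34, adjusted p = 0.537). Its neighbor in function Ifitm2 was at -0.10 (adjusted p = 0.882), Samhd1, which hydrolyzes dNTPs, at 0.24 (adjusted p = 0.434), and the cytidine deaminase Apobec3 at 0.68 (adjusted p = 0.107). As with Isg15, Ube2l6 and Bst2, Ifitm3 was highest in ΔAgo2 tumor 1 within its group.

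No gene of type I interferon receptor signaling and its feedback was called among 11 tested, with 7 positive values and a median of 0.32. Over all genes tested, 1.36% were called higher and 52.5% were positive, with a median of 0.04. Stat2 and Irf9, which bind the ISRE as parts of a complex and are named here for that role after their values were seen, had log2 fold changes of 0.48 (adjusted p = 0.286) and 0.76 (adjusted p = 0.124). Irf7, a factor that drives type I interferon genes, was at 0.63 (adjusted p = 0.253), Irf1 at 0.11 (adjusted p = 0.793) and the kinase Jak1 at 0.53 (adjusted p = 0.273). Socs3, a feedback inhibitor of cytokine signaling, was lower in every ΔAgo2 tumor than in every wild-type tumor (log2 fold change -0.80, SE 0.23, adjusted p = 0.077).

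Interferon genes themselves gave almost no counts. Of 21 interferon genes, 5 had 0 counts in all 8 libraries and none passed the count filter. Ifnb1 had 6 counts in all, in ΔAgo2 libraries 2 and 4, which were the deepest, and 0 counts in 6 libraries. A count of 0 allows up to 0.0562, 0.143, 0.0631 and 0.43 CPM in wild-type libraries 1 to 4, and the levels of Ifnb1 in ΔAgo2 libraries 2 and 4 (0.0263 and 0.0105 CPM) were under these limits, so a difference of that size was not detectable. Ifng, the type II interferon, was counted in every library, with a mean of 0.278 ± 0.295 CPM in wild-type and 0.294 ± 0.285 CPM in ΔAgo2 tumors (SD, n = 4 each).

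Relatives of the members by protein family were listed for comparison. Of 18 relatives, none was called, 11 were positive, the median log2 fold change was 0.16, and no gene had its genotypes apart. Over all genes tested, 1.36% were called higher, 52.5% were positive and in 8.05% every ΔAgo2 library was above every wild-type library. The dynamins Dnm1 and Dnm2, which share a fold with the Mx proteins, were at -0.46 (adjusted p = 0.292) and -0.34 (adjusted p = 0.262). Ubb, a polyubiquitin gene, was at -0.21 (adjusted p = 0.543), and Dtymk, the thymidylate kinase, at -0.01 (adjusted p = 0.981). Pyrimidine nucleotide synthesis is the pathway that supplies the substrates of Cmpk2 and Rsad2. Of 10 of its genes, none was called, 2 were positive and the median was -0.36, beside the same shares over all genes. Cad, which starts that synthesis, ran from 219.0 to 475.7 CPM in wild-type and from 125.0 to 206.9 CPM in ΔAgo2 tumors (adjusted p = 0.0701), and the salvage kinase Uck2 was higher in every ΔAgo2 tumor (0.47, SE 0.18, adjusted p = 0.134). Umps was at -0.22 (adjusted p = 0.395) and Ctps, which makes CTP, at -0.23 (adjusted p = 0.404).

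The nearest tested genes on each side of the members had values of either sign. Apart from members that neighbor each other, 16 such genes were tested: 0 were called higher, 1 was called lower, 6 had positive values and the median log2 fold change was -0.08. Over all 16061 genes tested, 219 (1.36%) were called higher, 341 were called lower, 52.5% were positive and the median was 0.04. Agrn, 1.94 kb from Isg15, was at -0.03 (adjusted p = 0.964), AW011738, 2.48 kb from Isg15 on its other side, at 0.64 (adjusted p = 0.242), Aen, 2.21 kb from Isg20, at -0.37 (adjusted p = 0.254), Bace2, 4.1 kb from Mx1, at -0.16 (adjusted p = 0.804) and Mvb12a, 5.46 kb from Bst2, at -1.09 (adjusted p = 0.139). The highest value was that of Ripk4, 181.0 kb from Mx2, with every ΔAgo2 tumor above every wild-type tumor (log2 fold change 1.60, SE 0.65, adjusted p = 0.155). The gene called lower was Sox11, 854.4 kb from Cmpk2 (log2 fold change -2.99, SE 0.43, adjusted p = 0.00624).

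Markers of cell types that could carry these transcripts were summed in each library. The 7 leukocyte markers summed to 824.9 to 1208 CPM in wild-type and 819.1 to 1271 CPM in ΔAgo2 tumors. None of these markers was called, beside 1.36% of all genes called higher. Their log2 fold changes were of either sign, from -0.87 for Coro1a (adjusted p = 0.263) to 1.12 for Ptprc (CD45, adjusted p = 0.0785), with Ptprc higher in every ΔAgo2 tumor. The 8 macrophage markers summed to 1591 to 1831 CPM in wild-type tumors. In ΔAgo2 tumors they summed to 2738 CPM in tumor 1, where Isg15, Usp18, Isg20, Bst2 and Xaf1 were highest, and to 1288, 1154 and 1073 CPM in tumors 2 to 4. The complement genes C1qa, C1qb and C1qc made up most of the sum in tumor 1 (921.4, 705.6 and 604.9 CPM). Cd68 (155.0 CPM) and Ms4a7 (66.9 CPM) were also higher in tumor 1 than in tumors 2 to 4. Adgre1 (47.7 CPM), Csf1r (164.4 CPM) and Mrc1 (72.3 CPM) lay there within the range of tumors 2 to 4. The 5 T cell markers, likewise, summed to 19.6 CPM in ΔAgo2 tumor 1 and to at most 6.12 CPM in the other ΔAgo2 tumors, against 3.85 to 9.63 CPM in wild-type tumors. The 5 natural killer cell markers summed to 6.02 to 15.3 CPM in wild-type and 13.3 to 24.3 CPM in ΔAgo2 tumors.
Sums for neutrophils (24.9 to 61.7 and 40.6 to 66.7 CPM) and endothelium (93.4 to 141.7 and 97.7 to 127.2 CPM) overlapped between wild-type and ΔAgo2 tumors, and those of plasmacytoid dendritic cells (3.24 to 25.6 and 2.59 to 6.67 CPM) and of B and plasma cells (1.29 to 2.87 and 1.18 to 3.92 CPM) were low in both. Of the 25.6 CPM, 23.3 CPM was Cox6a2, a gene that muscle also expresses, in wild-type library 3. Fibroblast markers summed to 771.7 to 1700 and 637.9 to 780.5 CPM, lung epithelial and simple-epithelial markers to 501.4 to 1261 and 716.7 to 1250 CPM, and keratinocyte markers to 10.2 to 555.6 and 424.3 to 824.8 CPM, with 1 keratinocyte gene, Krt10, called higher (log2 fold change 2.06, SE 0.48, adjusted p = 0.046). The part of these cell types in the members' values was not tested.

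Fold changes and calls of the members both moved with the processing. Over 22 alternatives, 218 of 220 member values were positive. Rsad2 ranged from 1.46 to 2.51 and was called in 16 of the 22. Mx2, Isg15, Isg20 and Xaf1 were called under none of the 22, with Isg15 running from -0.02 to 1.01, Isg20 from -0.03 to 0.98 and Xaf1 from 0.12 to 0.94. Herc6 ran from 0.86 to 1.88 and Usp18 from 0.79 to 1.95. Cmpk2, Mx1, Usp18, Herc6 and Bst2 were each called under some, and Bst2, which the DESeq2 Wald test did not call (adjusted p = 0.0624), was called with the GC trend removed (log2 fold change 1.23, adjusted p = 0.0432).

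**Figure D4:**
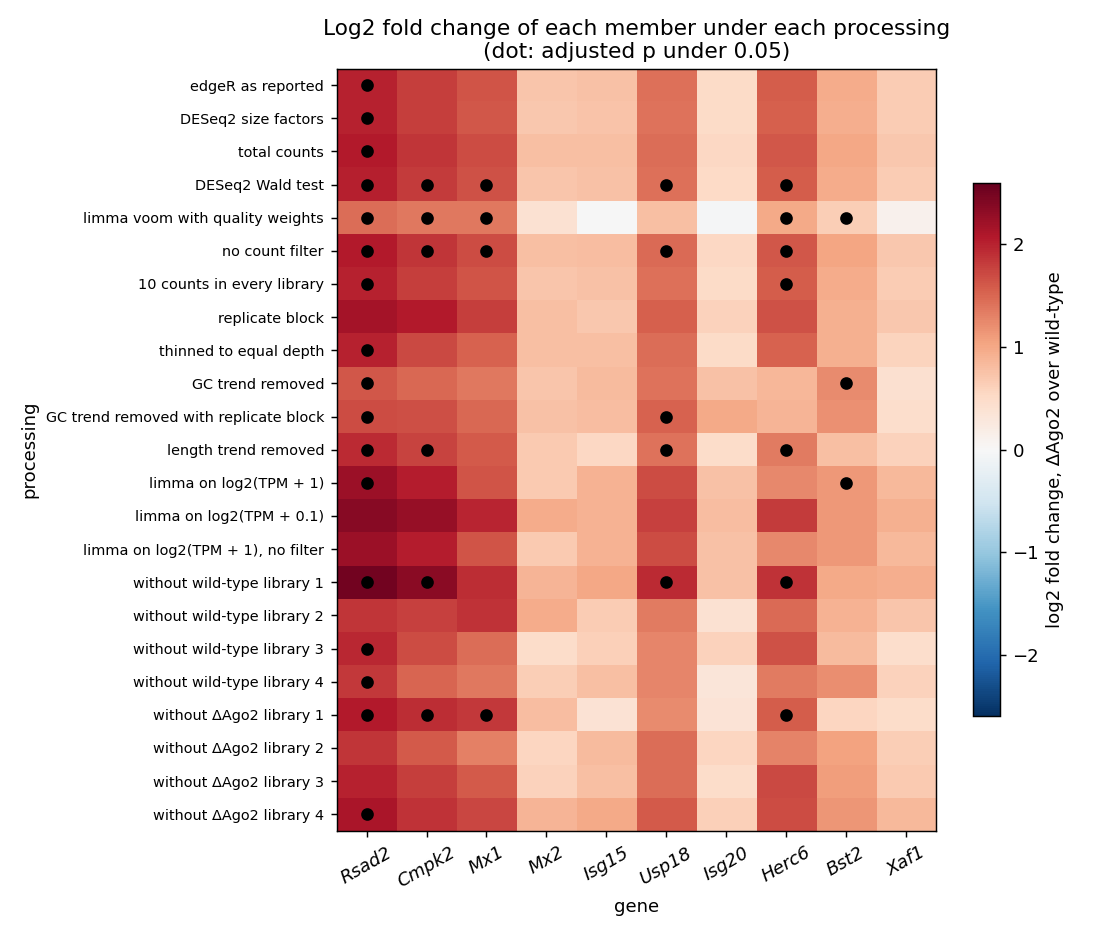
Log2 fold change of each member (columns) under each way of processing (top line as reported, others below), from blue (lower in ΔAgo2) to red (higher), with a dot where the adjusted p was under 0.05. The Rsad2 column carries most dots, and Mx2, Isg15, Isg20 and Xaf1 carry none.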

How the data were processed

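The authors deposited raw gene counts, unnormalized whole numbers, and TPM values, which divide counts by gene length and scale each library to 1e+06. The submitters' processing notes name mm10 and STAR; the study's methods describe alignment to mm10 and counting with featureCounts for cultured cells, and the annotation, strand setting and treatment of multi-mapping reads were not stated for the tumors. Identifiers were matched to GENCODE M21 on GRCm38, 55394 of 55487 without version and 8 of 10 members with it.

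Counts were analysed with edgeR 4.0.16 in R 4.3.3 (filterByExpr, TMM, quasi-likelihood test without covariates, Benjamini-Hochberg adjustment over 16061 genes, threshold 0.05), and all adjusted p-values are from this test unless another is named. Intervals of log2 fold changes are 95% and use its total degrees of freedom, residual plus prior. CPM uses TMM-scaled totals and log2 CPM a prior count of 2. Ratios of members were compared by two-sided exact permutation over 70 assignments. Library totals of 7903288 to 268564145 counts set the precision, so low genes are least precise in the shallow libraries. The titles call the samples biological replicates, 4 for each genotype.

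Alternatives were DESeq2 size factors, total counts, the DESeq2 1.42.0 Wald test, limma 3.58.1 voom with quality weights, a replicate block, thinning to equal depth, dropping the count filter or asking for 10 counts per library, removal of each library's trend on GC content or length (fitted on genes averaging 50 counts or more), limma on log2(TPM + 1), unfiltered or for genes reaching 0.5 TPM in 4 libraries, the same with 0.1 added, and leaving out each library. The length trend, and the GC trend for the ratios, were chosen after seeing the data. The procedure was tested on simulated data. Named genes were the members, Ago2, the ISG15-attaching enzymes, genes called in each list with up to 4 others of highest mean CPM, interferon genes with counts, nearest tested neighbors and the 6 nearest profiles with a mean of at least 1 CPM. The members and lists were chosen with earlier results of these data known. Promoter windows are from RefSeq and were scanned in Python 3.11.15.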

Additional observations from a re-analysis of the deposited data

Results flagged for a closer look

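In groups of 4 tumors, 2 of 28 sets of values held a tumor far from the rest of its group, and about 1.4 would be expected by chance. Both were ΔAgo2 tumor 1. Bst2 was at 344.2 CPM there and at 132.8 to 165.8 CPM in the other ΔAgo2 tumors. In TPM the gap for Bst2 was smaller, at 836.2 TPM there and 499.9 to 672.5 TPM in the other 3. Ube2l6 was at 132.5 CPM there and at 54.3 to 63.2 CPM in the other ΔAgo2 tumors. In the same tumor the macrophage markers summed to 2738 CPM, while tumors 2 to 4 gave 1073 to 1288 CPM. The gap lay mostly in C1qa, C1qb and C1qc, and Cd68 and Ms4a7 were also highest in tumor 1. Adgre1, Csf1r and Mrc1 lay within the range of tumors 2 to 4. The part of these cells in the Bst2 and Ube2l6 values was not tested.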

How the results depend on the processing

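The count of genes called, 560 as reported, was 2265 by the DESeq2 Wald test, 4476 by limma voom, 983 with no count filter, 1208 with the length trend removed, 153 on log2(TPM + 1), 107 on log2(TPM + 0.1), 77 on log2(TPM + 1) with no filter, and 88 to 1793 when 1 library was left out. The count of members called, 1 as reported, was 5 by the DESeq2 Wald test, 5 by limma voom, 5 with no count filter, 2 with at least 10 counts in every library, 2 with the GC trend removed, 4 with the length trend removed, 2 on log2(TPM + 1), 0 on log2(TPM + 0.1), 0 on log2(TPM + 1) with no filter, and 0 to 4 when 1 library was left out. It was 4 without wild-type library 1 and 4 without ΔAgo2 library 1, and 0 without wild-type library 2, ΔAgo2 library 2 or ΔAgo2 library 3. It was 1 with DESeq2 size factors, total counts or thinning, beside 1.01% to 1.38% of all genes called higher. Over all genes, the share called higher was 6.52% by the DESeq2 Wald test, 14.9% by limma voom and 1.7% with no count filter. That share was 1.73% with at least 10 counts in every library, 1.38% with the GC trend removed and 2.66% with the length trend removed. It was 0.11% to 0.5% on TPM and 0.123% to 6.01% when 1 library was left out. Deviations of same-numbered tumors correlated at -0.268, 0.115, -0.073 and -0.384, and whether these tumors shared more than a number was not tested. With the replicate block 70 genes, 0 members and 0 of the 33 other interferon-induced genes were called, beside 0.0809% of all genes called higher. With the block and the GC trend removed 312 genes and 2 members (Rsad2 and Usp18) were called, beside 0.704%. ISG15-attaching enzymes called numbered 0, and 1 (Trim25) by limma voom. Directions turned for Isg15 (-0.02) and Isg20 (-0.03) under limma voom, and for Cmpk2 minus Rsad2, -0.08 as reported, to 0.02 with the GC trend removed and over -0.37 to 0.14 when 1 library was left out. The share of calls that were higher in ΔAgo2 tumors was 39.1% as reported, 49.8% by the DESeq2 Wald test, 53.5% by limma voom, 52.4% with no count filter, 50.3% on log2(TPM + 1), 18.6% with the replicate block and 18.2% to 54.6% when 1 library was left out. The cause of these shifts was not tested. Depth limits Mx2, Mx1 and Herc6 most, with 10 to 13 counts in wild-type library 4.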
